A study of Mus musculus with 28 samples.

Results

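Transcripts of 7 S100 genes, S100b, S100a1, S100a4, S100a6, S100a11, S100a13 and S100a16, were followed in 28 RNA-Seq libraries of the mouse cerebral cortex. These 7 are among 17 S100 genes in the annotation, and among 53342 gene identifiers in each count table. The genes were chosen by their measured differences between conditional knockout (cKO) and control (Ctrl) mice in these same libraries (log2 fold changes and their tests), so the cKO against Ctrl values below are descriptions of the selected genes and carry no p-value. The enrichment of the transcripts in astrocyte ribosomes of Ctrl mice was not the stated measure of the choice, and it was tested. The choice did use the same Ctrl libraries, with earlier results of these data known. This test is therefore not independent of the choice, and its adjusted p-values are descriptions.

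All mice were on a C57BL/6J background. cKO mice carried the mGFAP-Cre driver together with loxP-flanked alleles of the targeted gene on both chromosomes (mGFAP-Cre;loxP/loxP), and Ctrl mice were sex-matched littermates with loxP/loxP or loxP/+ alleles, described without the driver. Bulk RNA-Seq was done at postnatal day 24 (P24) and at P17, each on 4 cKO and 4 Ctrl mice. Translating ribosome affinity purification (TRAP) was done at P24 on 3 cKO and 3 Ctrl mice, in which mGFAP-Cre switched on an EGFP tag on the ribosomal protein Rpl10a. Since the tag needs Cre, Ctrl mice of this experiment would have carried the driver too, although the labels do not say so. The IP fraction is RNA pulled down with the tagged ribosomes, and the Input is the RNA of the same homogenate before the pull-down. Each library came from 1 mouse, and in the TRAP experiment the cortices of both hemispheres were taken. The driver acts in cells that use the mouse Gfap promoter, so the IP samples the cells in which Cre acted and not every cortical astrocyte.

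S100 proteins are small proteins with a pair of EF-hand motifs that bind calcium, and most work as dimers. Binding of calcium opens a surface through which they hold other proteins, such as annexins and cytoskeletal proteins, and some are also released from cells and bind receptors such as the product of Ager. In the brain, S100b is a widely used marker of astrocytes. S100a4, S100a6 and S100a11, which act on myosin, annexins and other proteins of the cytoskeleton and membrane, are low in the healthy adult cortex and are known from motile, dividing or reactive cells.

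Of the 7 genes, 6 lie on chromosome 3 and S100b lies alone on chromosome 10 (GRCm38, chr10:76253853-76261159, plus strand). S100a1 (chr3:90511034-90514392, minus strand) and S100a13 (chr3:90514435-90524581, plus strand) start back to back, 42 bases apart. S100a16 (chr3:90537254-90543151), S100a4 (chr3:90603771-90606045) and S100a6 (chr3:90612882-90624181) follow on the plus strand, so that these 5 genes span 113 kb. S100a11 (chr3:93520488-93526287, plus strand) is far from them, 2896306 bases further on. The bases between S100a1 and S100a13 are shown first because both genes start there, followed by the 250 bases before the RefSeq start of the gene that was lower in P24 cKO cortex, S100b, and of the 3 genes with the largest fold changes, S100a4, S100a6 and S100a11. The starts are those of RefSeq (GRCm38.p6) and lie close to the gene starts above. Sequences read 5′ to 3′ on the plus strand, and capitals mark motif matches.

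Between S100a1 and S100a13, chr3:90514393-90514434: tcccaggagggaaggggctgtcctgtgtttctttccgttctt

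S100b, chr10:76253586-76253835: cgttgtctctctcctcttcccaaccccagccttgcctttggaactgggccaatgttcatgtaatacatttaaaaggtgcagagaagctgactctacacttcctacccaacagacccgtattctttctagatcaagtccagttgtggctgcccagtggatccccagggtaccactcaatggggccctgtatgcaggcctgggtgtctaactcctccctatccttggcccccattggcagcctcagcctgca

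S100a4, chr3:90603520-90603769: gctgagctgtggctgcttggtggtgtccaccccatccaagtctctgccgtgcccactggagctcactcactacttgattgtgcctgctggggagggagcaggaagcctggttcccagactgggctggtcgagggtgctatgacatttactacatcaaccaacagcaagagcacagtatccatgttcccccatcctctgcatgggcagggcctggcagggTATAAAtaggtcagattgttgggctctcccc

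S100a6, chr3:90612644-90612893: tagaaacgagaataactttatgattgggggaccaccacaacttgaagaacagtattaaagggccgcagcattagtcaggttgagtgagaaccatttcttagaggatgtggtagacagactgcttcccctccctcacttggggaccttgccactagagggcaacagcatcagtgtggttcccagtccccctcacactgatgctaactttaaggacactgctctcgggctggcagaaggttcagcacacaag

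S100a11, chr3:93520246-93520495: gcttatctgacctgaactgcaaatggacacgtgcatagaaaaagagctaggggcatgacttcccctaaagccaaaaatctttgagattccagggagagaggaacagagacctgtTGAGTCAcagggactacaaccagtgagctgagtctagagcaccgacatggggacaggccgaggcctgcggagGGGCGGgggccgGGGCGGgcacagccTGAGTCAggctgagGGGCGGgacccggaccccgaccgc

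Both strands of these windows were searched for 4 short motifs. These were the letters TATAAA of the core promoter, TGANTCA of AP-1, TTCNNNGAA of STAT factors and GGGCGG of Sp1, and no matches overlapped. S100a4 has the core promoter motif TATAAA 31 bases before its start. S100a11 has the AP-1 letters TGAGTCA 136 and 38 bases before its start, and GGGCGG 64, 52 and 24 bases before it. The windows of S100b, S100a1, S100a6 and S100a13 hold none of the 4, and neither does the first start of S100a16, while its second start has an AP-1 match 192 bases and an Sp1 match 30 bases before it. Among 32841 mouse promoters of 300 bases, 13.6% hold the core promoter motif, 7.81% the AP-1 motif, 8.3% the STAT motif and 35.7% the Sp1 motif. The 3 strongly raised genes therefore share none of these motifs, and the matches are descriptions of letters only.

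Between 8855488 and 14575306 reads were counted on genes in the bulk libraries and between 18433087 and 27242445 in the TRAP libraries, so that 3 counts, taken as the limit of detection, equal 0.206 to 0.339 and 0.11 to 0.163 CPM, the counts scaled to a common library total. Levels below are CPM after TMM scaling, and a gene is said to be called when its adjusted p over all genes tested is under 0.05 in edgeR. Some libraries stood apart. P24 Ctrl replicates 1 and 4 held RNA of the olfactory bulb or epithelium, with the summed level of 4 markers at 82.1 and 95.0 CPM against 17.7 and 10.6 CPM in the other two and 7.99 to 11.6 CPM in cKO. Lower sums, still the highest of their groups, were found in P17 Ctrl replicate 4 (36.4 CPM), P17 cKO replicate 2 (26.6 CPM) and the Input of Ctrl mouse 1 (31.8 CPM). The Input library of cKO mouse 1 was tilted towards short transcripts, with a median log2 ratio to the other two cKO Input libraries of 0.33 for genes under 1 kb of exon and -0.15 for genes of 4 kb or more. P24 cKO replicate 1 was the lowest of its group for 6 of the 7 genes. Results that rest on these libraries are given with and without them.

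Per kilobase of exon, the unit in which different genes can be compared, S100a1 and S100b were the most abundant of the 7 in Ctrl cortex. At P24, Ctrl levels were 56.8 ± 5.14 CPM per kb for S100a1 and 30.7 ± 1.12 for S100b (mean ± SD, n = 4). S100a16 followed at 12.6 ± 1.69, S100a13 at 6.24 ± 0.897, S100a11 at 5.35 ± 0.741 and S100a6 at 3.34 ± 0.549 CPM per kb, and S100a4 was last at 0.798 ± 0.131. Only S100a13 and S100a11, neighbours in this order, had overlapping libraries. The P17 Ctrl order was the same, with S100a11 and S100a6 overlapping. 

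In cKO cortex at P24 the lower end of the order closed up. S100a1 stayed first at 103 ± 14.2 CPM per kb and S100b second at 23.2 ± 1.86 (n = 4). S100a4 moved from last place to 15.1 ± 9.40 CPM per kb, beside S100a6 at 16.1 ± 6.79 and S100a11 at 14.2 ± 6.51, and 5 of the 6 pairs of neighbours in the order overlapped. The summed level of the 7 genes was 116 ± 6.36 CPM per kb in Ctrl and 202 ± 42.2 in cKO. Of that sum, S100b made up 26.6 ± 1.64% in Ctrl and 12.04 ± 3.56% in cKO, whereas S100a4, S100a6 and S100a11 together made up 8.21 ± 1.03% and 21.3 ± 7.82%. Every cKO library was above the highest Ctrl library for this joint share and below the lowest for the share of S100b.

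**Figure D1:**
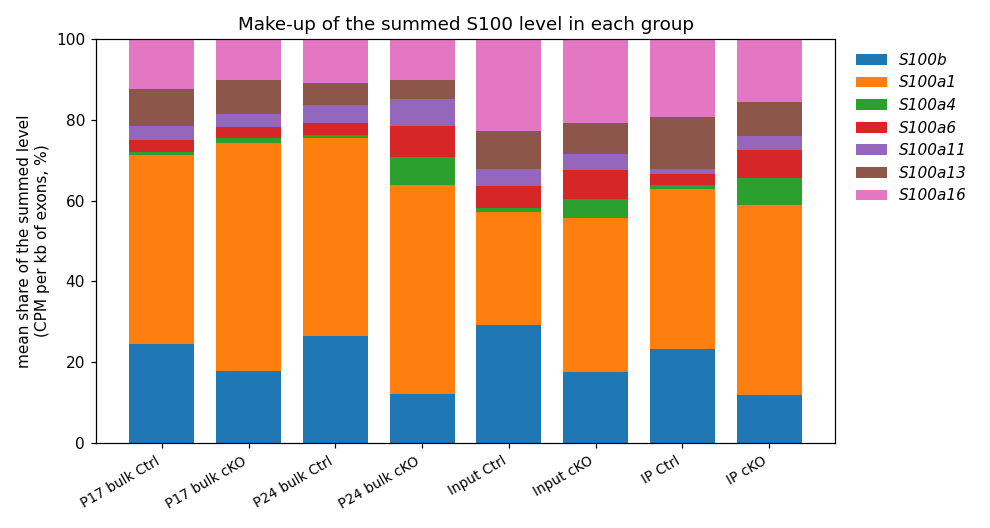
Share of each of the 7 S100 genes in their summed level (percent of CPM per kb of exon), as the mean of each group, for Ctrl and cKO in P17 bulk, P24 bulk, TRAP Input and TRAP IP libraries. S100b takes 26.6% of the sum in P24 Ctrl and 12.04% in P24 cKO, and S100a4, S100a6 and S100a11 together 8.21% and 21.3%.

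At P24, S100a1, S100a4, S100a6 and S100a16 were called higher and S100b lower in bulk cKO cortex, 5 of the 7 genes, where 1.72% of the 22495 genes tested were called in either direction. The rule used this comparison, so nothing is read from that contrast. The median log2 fold change of the 7 genes was 0.85 and that of all genes tested 0.0005. In bulk tissue, a change in the number of cells of a type and a change in RNA per cell cannot be told apart.

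S100b, the astrocyte marker, measured 45.8, 45.5, 43.6 and 47.6 CPM in the 4 Ctrl mice and 36.6, 30.8, 36.6 and 33.8 CPM in the 4 cKO mice. All cKO libraries lay below all Ctrl libraries, with a log2 fold change of -0.41 ± 0.064 (SE). S100a1, best known for its part in calcium cycling of heart muscle, measured 35.3, 38.0, 43.6 and 40.8 CPM in Ctrl. In cKO it measured 58.7, 79.5, 78.9 and 68.5 CPM, again without overlap (0.85 ± 0.096).

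S100a4, which binds nonmuscle myosin, was close to the limit of detection in Ctrl, at 0.442, 0.52, 0.533 and 0.369 CPM, or 5 to 7 counts a library. In cKO it reached 1.62, 14.4, 11.4 and 7.89 CPM, or 24 to 178 counts. The ratio of the means was 18.9 and the log2 fold change 4.20 ± 0.64. Since the Ctrl counts were under the minimum of 10 used for filtering, S100a4 entered the test through its cKO libraries. S100a6, also called calcyclin, measured 5.09, 3.64, 5.26 and 4.28 CPM in Ctrl and 9.21, 29.8, 27.8 and 21.1 CPM in cKO. These groups did not overlap either, and the log2 fold change was 2.26 ± 0.31.

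S100a11, a partner of annexins, measured 3.10, 2.38, 2.44 and 3.02 CPM in Ctrl and 2.71, 10.4, 8.81 and 7.09 CPM in cKO. Its first cKO library lay within the Ctrl range while the other three were above it, and at 1.39 ± 0.33 it was not called. S100a13, which takes part in the release of FGF1, measured 4.42, 4.01, 4.04 and 5.38 CPM in Ctrl and 4.81, 6.55, 8.81 and 7.38 CPM in cKO (0.62 ± 0.18, not called). S100a16, a broadly expressed member, measured 16.7, 21.3, 20.2 and 23.2 CPM in Ctrl and 21.8, 39.2, 38.1 and 34.3 CPM in cKO (0.70 ± 0.16, called). For S100a13 and S100a16, too, cKO replicate 1 overlapped Ctrl and the other three replicates did not.

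The libraries that stood apart moved these counts. Without cKO replicate 1, all 7 genes were called. Without the pair of Ctrl libraries that held olfactory markers, 1 of the 7, S100a1, was called. The share of all genes called in these fits is not given here, so nothing is read from the counts. The call of S100a16 was lost when any one of the Ctrl libraries or of the cKO replicates 2, 3 and 4 was left out, whereas S100b, S100a1, S100a4 and S100a6 stayed called in each of the 8 fits that left out a single library.

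**Figure D2:**
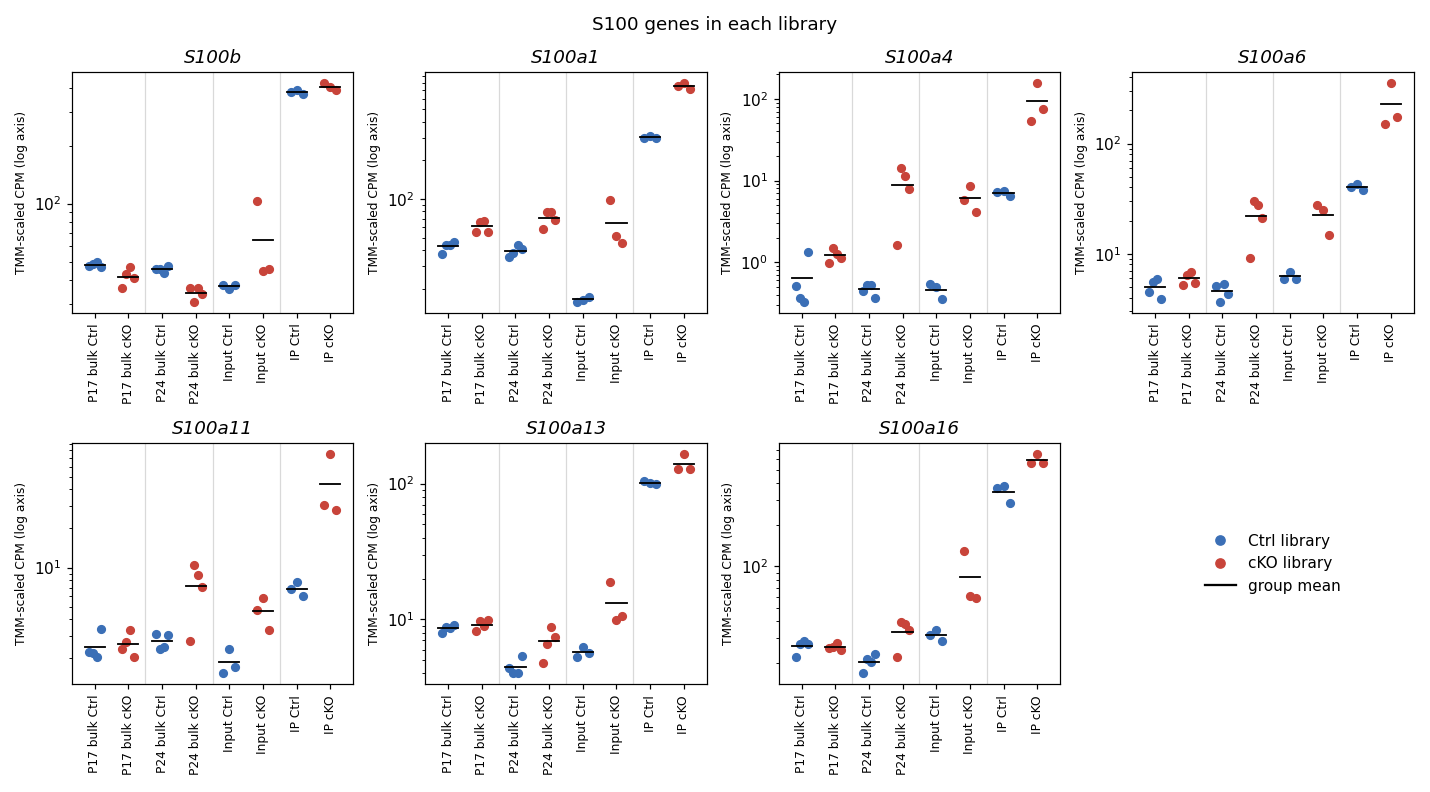
CPM of each of the 7 S100 genes in every library (points, logarithmic axis) by group, Ctrl and cKO side by side in P17 bulk, P24 bulk, TRAP Input and TRAP IP. At P24, S100a4 goes from 0.369 to 0.533 CPM in Ctrl to 1.62 to 14.4 CPM in cKO, and S100b from 43.6 to 47.6 down to 30.8 to 36.6 CPM.

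A week earlier, at P17, the cKO mice showed less of this pattern. S100a1 was the one called gene of the 7, where 0.0943% of 21201 genes were called. It measured 37.3, 43.7, 43.9 and 46.2 CPM in Ctrl and 55.7, 66.5, 67.1 and 55.5 CPM in cKO, without overlap (log2 fold change 0.53 ± 0.086). This call was lost in each fit that left out 1 of the 8 libraries, with the log2 fold change between 0.46 and 0.57. When same-numbered mice were paired, as the P17 libraries allow, 107 genes were called in place of 20, and S100a1 was again the one of the 7.

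S100b measured 47.2, 48.6, 49.8 and 46.6 CPM in P17 Ctrl and 36.5, 42.9, 46.9 and 40.8 CPM in cKO, with 3 of 4 cKO libraries below all Ctrl libraries (-0.19 ± 0.071, not called). S100a4 was at 0.519, 0.366, 0.326 and 1.34 CPM in Ctrl, or 3 to 12 counts, and at 0.966, 1.49, 1.27 and 1.13 CPM in cKO (0.97 ± 0.40, not called). One Ctrl library reached the cKO range there. S100a6 ranged from 3.91 to 5.86 CPM in Ctrl and from 5.15 to 6.88 CPM in cKO (0.27 ± 0.17). S100a11, S100a13 and S100a16 overlapped between the genotypes, at log2 fold changes of 0.09 ± 0.23, 0.10 ± 0.11 and -0.01 ± 0.086. The joint share of S100a4, S100a6 and S100a11 was 7.23 ± 0.844% in P17 Ctrl and 7.31 ± 0.511% in P17 cKO.

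The gap between the ages was estimated in a single fit of the 16 bulk libraries, as an age by genotype term. On the log2 scale, the P24 difference between genotypes minus the P17 difference was 3.23 ± 1.03 for S100a4, 1.98 ± 0.42 for S100a6, 1.30 ± 0.47 for S100a11 and 0.71 ± 0.20 for S100a16. The values for S100a13, S100a1 and S100b were 0.52 ± 0.21, 0.32 ± 0.14 and -0.22 ± 0.099. The term holds the P24 difference by which the genes were chosen, so its values and calls are descriptions. By edgeR's quasi-likelihood test none of the 7 was called, where 0.047% of 23395 genes were called, and 7 had an unadjusted p under 0.05. With same-numbered mice of an age paired, S100a6 and S100a16 were called, 2 of the 7. DESeq2 and edgeR's likelihood ratio test each called 2, S100a4 and S100a6. Without P24 cKO replicate 1 the quasi-likelihood test called 4: S100a4, S100a6, S100a11 and S100a16. The 0.047% belongs to the unpaired quasi-likelihood fit of all 16 libraries and to adjusted p. Shares of all genes at the other settings are not given here, so nothing is read from their counts. The ages were sequenced at different depth, and age and experiment cannot be told apart.

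**Figure D3:**
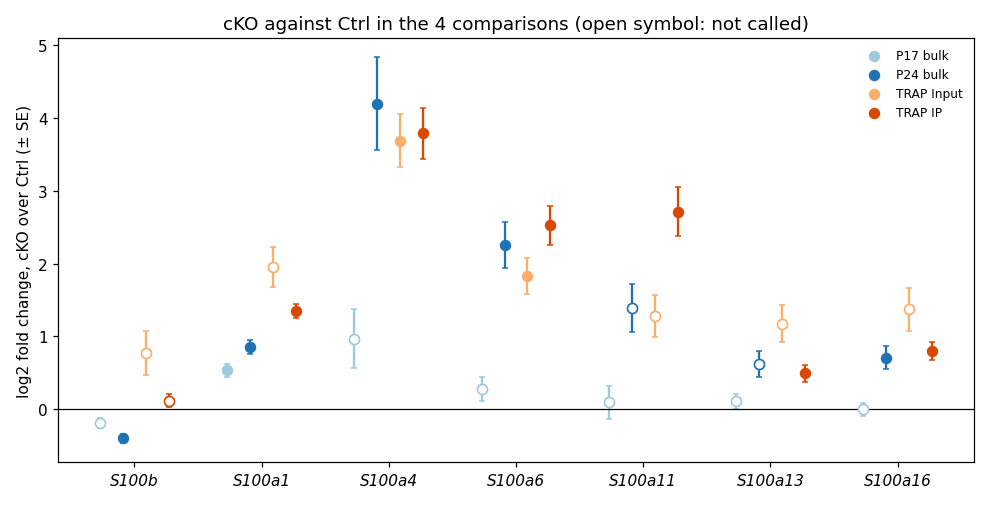
Log2 fold change of cKO over Ctrl (points, with the SE as bars) for the 7 S100 genes in P17 bulk, P24 bulk, TRAP Input and TRAP IP. S100a4 lies at 0.97 at P17, 4.20 at P24, 3.69 in Input and 3.79 in IP, while S100b lies at -0.19, -0.41, 0.77 and 0.11.

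The TRAP libraries of Ctrl mice asked in which RNA fraction the 7 transcripts are found, without any cKO library. All 7 were higher in the IP than in the Input, in 3 of 3 mice and without overlap, where 38.1% of 24385 genes were higher without overlap. Each of the 7 was called, where 71% of genes were called in either direction, and the median log2 ratio of the 7 was 3.41 against -0.03 for all genes tested. This fit, which gave the SE and adjusted p below, did not pair the IP and Input of a mouse. With the mouse as a block, each of the 7 was again called. S100a4, with 7 to 13 counts in the Input libraries, passed the filter on low counts through its IP libraries, so its call is a description and supports nothing. As a check of the fractions, 8 of 8 astrocyte markers were called higher at a median of 3.80, while 5 of 6 neuron markers (median -1.77), 8 of 8 microglia or macrophage markers (-1.25) and 5 of 5 endothelial markers (-1.27) were called lower. Ependymal markers, 4 of 4, were also called higher (2.97).

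S100a1 had the largest ratio, 15.8, 16.4 and 17.4 CPM in the Input and 300.0, 312 and 298 CPM in the IP of the 3 Ctrl mice, a log2 ratio of 4.15 ± 0.099 (adjusted p = 5.051e-10, edgeR quasi-likelihood test with Benjamini-Hochberg adjustment). S100a13 was close to it at 4.11 ± 0.11 (adjusted p = 5.051e-10), rising from 5.27, 6.31 and 5.65 CPM to 105, 101 and 99.5 CPM. S100b went from 37.5, 36.2 and 37.8 CPM to 378, 392 and 371 CPM (3.31 ± 0.093, adjusted p = 5.051e-10). S100a16 had a ratio near that of S100b, 3.41 ± 0.13 (adjusted p = 1.948e-09).

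S100a4, S100a6 and S100a11, low in Ctrl cortex, were also enriched. S100a4 measured 0.54, 0.498 and 0.353 CPM in the Input and 7.15, 7.46 and 6.42 CPM in the IP (log2 ratio 3.85 ± 0.22). S100a6 measured 5.94, 6.81 and 5.95 CPM in the Input and 40.5, 42.8 and 37.7 CPM in the IP (2.65 ± 0.12, adjusted p = 4.495e-09). S100a11 had the lowest ratio of the 7, from 1.54, 2.38 and 1.71 CPM to 6.81, 7.73 and 6.07 CPM (1.84 ± 0.20, adjusted p = 6.182e-06). The median of the astrocyte markers, 3.80, lay above the ratios of S100b, S100a16, S100a6 and S100a11, below those of S100a1 and S100a13, and close to that of S100a4. The fit scales each library to its own total, so a ratio is relative to the other transcripts and not an absolute yield.

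**Figure D4:**
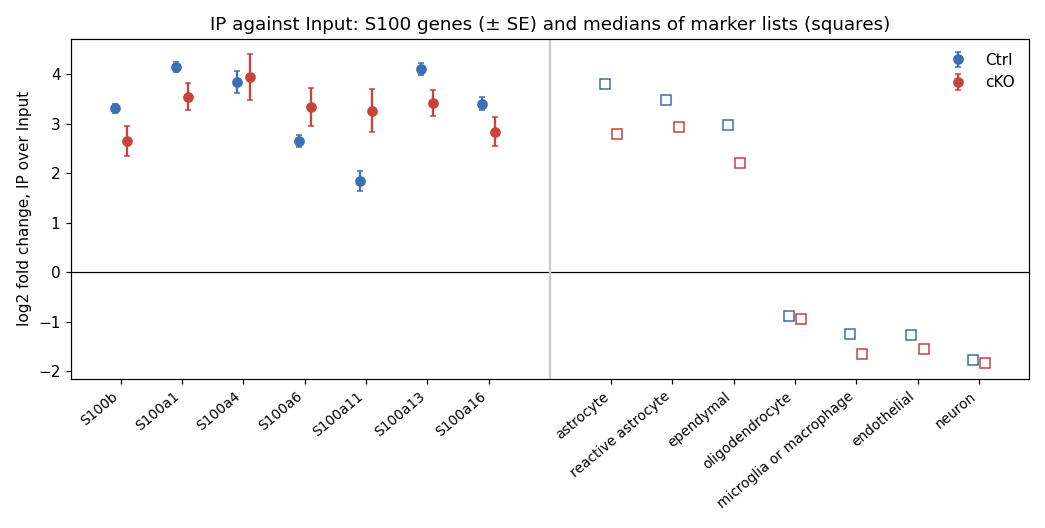
Log2 ratio of IP to Input (points, with the SE as bars) for the 7 S100 genes in Ctrl and in cKO mice, 3 mice each. The Ctrl ratio is 4.15 for S100a1 and 1.84 for S100a11, and the cKO ratio 3.55 and 3.26.

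In cKO mice the IP was again above the Input for 7 of 7 genes without overlap, where 31.6% of 24011 genes were higher without overlap and 56.3% were called in either direction. These ratios share the cKO libraries with the choice of the genes and are given as descriptions, with no p-value. The log2 ratios were 3.94 ± 0.46 for S100a4, 3.55 ± 0.28 for S100a1, 3.42 ± 0.26 for S100a13, 3.34 ± 0.38 for S100a6, 3.26 ± 0.43 for S100a11, 2.84 ± 0.29 for S100a16 and 2.66 ± 0.30 for S100b. Without both libraries of cKO mouse 1, an alternative added after the values were seen, the ratios lay between 3.12 for S100b and 4.20 for S100a4. The astrocyte markers had a median of 2.79 in cKO, 8 of 8 called higher.

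In the IP of cKO mice, 6 of the 7 genes were called higher than in the IP of Ctrl mice and none lower, where 20% of 23864 genes were called. The rule used this comparison too. S100a4 measured 54.1, 157 and 74.5 CPM in cKO, against 7.15, 7.46 and 6.42 CPM in Ctrl (log2 fold change 3.79 ± 0.35). S100a11 measured 30.3, 74.8 and 27.8 CPM against 6.81, 7.73 and 6.07 CPM (2.71 ± 0.34), and S100a6 152, 357 and 175 CPM against 40.5, 42.8 and 37.7 CPM (2.52 ± 0.27). Mouse 2 was the highest cKO library for each of them.

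S100a1 measured 754, 802 and 722 CPM in the cKO IP (1.35 ± 0.094), S100a16 561, 651 and 560.3 CPM against 369.9, 379 and 289 CPM in Ctrl (0.79 ± 0.12), and S100a13 129, 165 and 128 CPM (0.49 ± 0.12). No library of one genotype reached the range of the other for these genes, where 18.3% of all genes were higher in cKO without overlap. S100b was the exception, at 424, 402 and 389 CPM in cKO against 378, 392 and 371 CPM in Ctrl, with overlap (0.11 ± 0.089, not called). The gene that was lower in the bulk cortex of P24 cKO mice had no lower level among the ribosome-bound transcripts. The bulk and IP libraries came from different mice, and an IP level is relative to the other transcripts there. Of the 8 astrocyte markers, 2 were called lower in the cKO IP and 0 higher, at a median log2 fold change of -0.33. The same 6 S100 genes were called in each of the 6 fits that left out 1 library. In a fit of all TRAP libraries together, 4 of them were called, S100a1, S100a4, S100a6 and S100a11. The share of all genes called in these fits is not given here. Per kb of exon, S100a16 passed S100b in the cKO IP, 365 ± 32.1 against 273 ± 12.2 CPM per kb (n = 3), while in the Ctrl IP the order was 214 ± 30.5 and 256 ± 7.14.

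In the Input, all 7 genes lay higher in the 3 cKO mice than in the 3 Ctrl mice without overlap, where 7.11% of 23828 genes were higher without overlap. Of the 7, S100a4 and S100a6 were called, where 0.109% of genes were called. The rule used such differences, so nothing is read from these counts. S100a4 measured 0.54, 0.498 and 0.353 CPM in Ctrl and 5.86, 8.54 and 4.09 CPM in cKO (3.69 ± 0.36). S100a6 measured 5.94, 6.81 and 5.95 CPM in Ctrl and 27.5, 25.2 and 14.8 CPM in cKO (1.83 ± 0.24). S100a11, like S100a4, was highest in cKO mouse 2, at 4.68, 5.86 and 3.28 CPM in cKO against 1.54, 2.38 and 1.71 CPM in Ctrl (1.28 ± 0.29, not called). S100b, S100a1, S100a13 and S100a16, like S100a6, were highest in cKO mouse 1, the library tilted towards short transcripts.

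S100b measured 103, 44.6 and 45.8 CPM in the cKO Input, S100a1 97.6, 51.9 and 45.5 CPM, S100a16 129, 61.2 and 59.0 CPM and S100a13 19.0, 9.96 and 10.6 CPM, the first value being mouse 1 each time. Without that library the log2 fold change of S100b fell from 0.77 ± 0.30 to 0.28, that of S100a1 from 1.95 ± 0.28 to 1.55 and that of S100a16 from 1.37 ± 0.29 to 0.92, and 5 of the 7 genes were called. The count was 1 without cKO mouse 2, 3 without cKO mouse 3 and 0 without any one of the Ctrl mice. The share of all genes called in these fits is not given here, so nothing is read from the counts. S100b lay higher in cKO Input and lower in cKO bulk cortex of the same age, in libraries from different mice and prepared in different ways. Astrocyte markers as a sum shared the rise in the Input, without a clear fall in bulk. The summed level of 8 astrocyte markers was 989 to 1203 CPM in Ctrl Input and 1532 to 1852 CPM in cKO Input. There cKO mouse 1, the highest for S100b, had the lowest sum of the cKO mice. In P24 bulk the sum was 4480 to 5100 CPM in Ctrl and 4167 to 4574 CPM in cKO, with overlap. Of the 8 markers, 3 were called higher and 2 lower in P24 bulk, at a median log2 fold change of 0.11.

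Whether the cKO difference itself differed between IP and Input was fitted as an interaction of fraction and genotype. None of the 7 genes was called by edgeR's quasi-likelihood test, where 0.0582% of 25768 genes were called, and DESeq2 also called 0, while 2 had an unadjusted p under 0.05. The largest value was that of S100a11, at 1.43 ± 0.52 on the log2 scale, meaning a larger cKO difference in the IP. S100a4 was at 0.10 ± 0.76 and S100a6 at 0.69 ± 0.41, and S100b, S100a1, S100a13 and S100a16 lay between -0.69 and -0.58. Without the Input library of cKO mouse 1, these 4 values moved towards 0, from -0.66 to -0.17 for S100b, from -0.61 to -0.21 for S100a1, from -0.69 to -0.36 for S100a13 and from -0.58 to -0.14 for S100a16. The 8 astrocyte markers had a median of -0.83 for the same interaction. Of them the quasi-likelihood test called 0 and DESeq2 called 3, and 6 had an unadjusted p under 0.05. Negative values were thus not particular to the S100 genes. The interaction, too, holds differences by which the genes were chosen and is a description. None of the 7 was called in the fits that left out 1 of the 12 libraries.

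Astrocyte reactivity markers ran with several of these genes in P24 bulk and in the IP, and less so in the Input. Vim, an intermediate filament gene of reactive and immature astrocytes, measured 34.8, 24.9, 27.7 and 33.6 CPM in P24 Ctrl and 81.9, 453, 336 and 263 CPM in P24 cKO (log2 fold change 3.22 ± 0.39, called), and Gfap was at 2.51 ± 0.11. The order of the 4 cKO libraries from high to low, replicates 2, 3, 4 and 1, was the same for Vim, Gfap, S100a1, S100a4, S100a6, S100a11 and S100a16. The share of all genes in this order is not given here. Over all genes, replicate 1 differed from the other replicates by a chi-square per degree of freedom of 11.4 to 14. Among those other replicates it was 3.2 to 4.77. Relative to the Ctrl mean, the folds in cKO replicates 1 to 4 were 3.49, 30.9, 24.5 and 16.9 for S100a4 and 2.71, 14.98, 11.1 and 8.69 for Vim. S100a13 ran in the order 3, 4, 2 and 1. S100b ran in the order 1, 3, 4 and 2, so the library with the most Vim had the least S100b.

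In the TRAP IP, cKO mouse 2 was the highest for Vim, Gfap and every one of the 7 genes but S100b, with folds over the Ctrl mean in mice 1 to 3 of 7.71, 22.4 and 10.6 for S100a4 and 4.44, 13.6 and 7.71 for Vim. In the cKO Input the order from high to low was mice 2, 3 and 1 for Vim and Gfap. It was 2, 1 and 3 for S100a4 and S100a11. There S100b, S100a1, S100a6, S100a13 and S100a16 were highest in mouse 1, the lowest library for Vim and Gfap. At P17, Vim was at 0.42 ± 0.12, not called, and Gfap at 1.03 ± 0.082, called. Gfap and Vim were both called in the age by genotype fit.

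**Figure D5:**
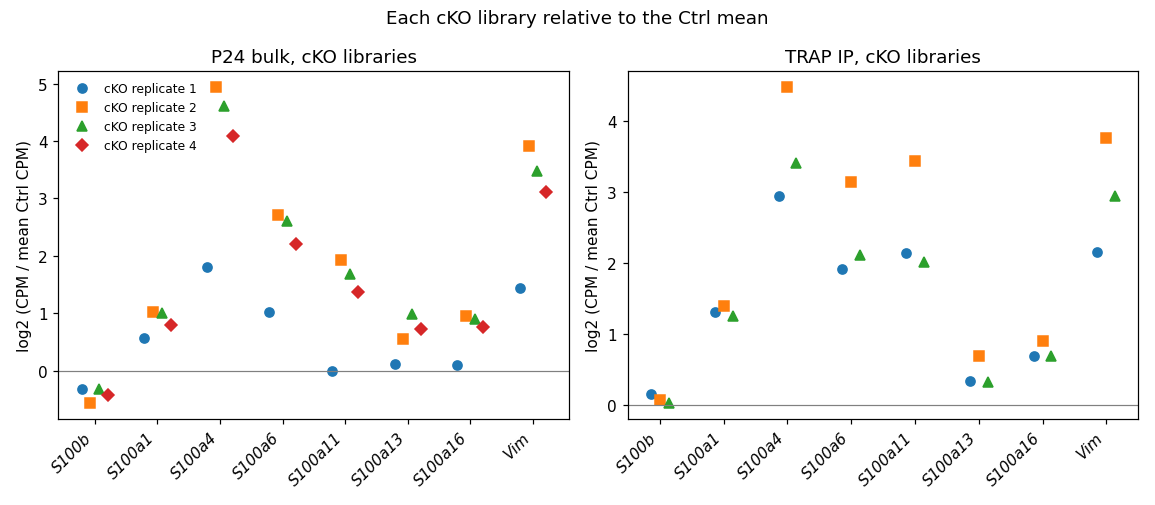
Log2 ratio of each cKO library to the Ctrl mean for the 7 S100 genes and Vim, in P24 bulk (4 mice) and TRAP IP (3 mice), with a marker shape per replicate. P24 replicate 1 is the lowest for all but S100b, and IP mouse 2 the highest for all but S100b.

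Markers of other cells were measured beside these results. Of the 8 microglia or macrophage markers, cells in which S100a4, S100a6 and S100a11 are also known, 0 were called in P24 bulk by edgeR or DESeq2 and 3 had an unadjusted p under 0.05, with sums of 287 to 323 CPM in Ctrl and 280 to 362 CPM in cKO. In the IP 1 of 8 was called higher (Cd68), with sums of 91.1 to 104 and 90.04 to 94.4 CPM. Of the 5 fibroblast or meninges markers 0 were called at P24 by either tool and 0 had an unadjusted p under 0.05, with sums of 62.8 to 122 CPM in Ctrl and 44.8 to 87.0 CPM in cKO, and T cell and neutrophil markers did not exceed 0.559 and 1.04 CPM in any library. The 8 astrocyte markers summed to 4480 to 5100 CPM in P24 Ctrl and 4167 to 4574 CPM in cKO, with 3 called higher and 2 lower. The part of cell numbers in the S100 differences was not tested.

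Of the 10 S100 genes not in the list, few were expressed. Only 2 could be tested in each bulk comparison, 5 in the IP and 3 in the Input, and edgeR's quasi-likelihood test called 0 in either bulk comparison or in the Input. At an unadjusted p under 0.05 there was 1 at P24, 0 at P17 and 1 in the Input, and DESeq2 called 1 at P24. In the IP, 2 were called higher in cKO. S100a10, or p11, the partner of annexin A2, measured 31.6, 37.5 and 32.3 CPM in Ctrl and 117, 168 and 105 CPM in cKO (1.96 ± 0.17). S100a3 measured 1.51, 0.995 and 1.02 CPM in Ctrl and 2.58, 7.32 and 4.41 CPM in cKO (2.04 ± 0.36). In P24 bulk, S100a10 had the same first cKO library within the Ctrl range (0.75 ± 0.18, not called). Between IP and Input of Ctrl mice, 3 of these other genes were tested. The log2 ratios were 0.63 ± 0.10 for S100a10 (called), 0.71 ± 0.30 for S100a3 and 0.10 ± 0.43 for S100g (both not called). The median of the 7 chosen genes was 3.41. S100a10 and S100a3, called higher in the cKO IP but not chosen, thus had lower ratios than the chosen genes. Whether the choice favoured enriched genes was not tested, so the enrichment of the 7 as a set is a description. S100a5, a gene of olfactory neurons, was at 4.50 and 3.69 CPM in P24 Ctrl replicates 1 and 4 and at 0.297 CPM or less in the other P24 bulk libraries. S100a8 and S100a9, the calprotectin genes of neutrophils, averaged under 1 CPM in every group.

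Proteins that S100 proteins are known to bind were followed through 19 genes. In P24 bulk 1 of 18 tested was called, Fgf1, a growth factor released with S100a13, which fell by 0.50 ± 0.079 on the log2 scale. At an unadjusted p under 0.05 there were 5. DESeq2 called 3: Fgf1, Anxa2 (0.74 ± 0.22 in edgeR, not called) and Ahnak (0.41 ± 0.11, not called). At P17 and in the Input 0 of 18 were called by edgeR or DESeq2, with 1 and 0 at an unadjusted p under 0.05. In the IP 5 of 19 were called, 2 higher and 3 lower, a share near the 20% of all genes. Ahnak, a large scaffold that binds S100a10 with annexin A2, went from 6.39, 4.29 and 4.57 CPM to 11.04, 20.0 and 11.1 CPM (1.49 ± 0.25), and Anxa2 from 15.4, 10.9 and 10.8 CPM to 22.5, 36.4 and 26.0 CPM (1.21 ± 0.19). Fgf1 was lower, at 122, 90.3 and 123 CPM in cKO against 189, 196 and 194 CPM in Ctrl (-0.76 ± 0.12), as was Stk38, a kinase bound by S100b (-0.41 ± 0.12). S100a13 and Fgf1 thus lay in opposite directions in the cKO IP.

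Neighbouring genes on the chromosome were counted to see how far the pattern reached. Of 76 other genes within 250 kb of the 7, 30 were tested in P24 bulk and 1 was called, Gm42674, where 1.72% of all genes were. It shares 302 of the 584 exonic bases of S100a4 on the same strand, so reads in these bases could have been given to either gene or to neither, and the S100a4 counts carry that uncertainty. Gm42674 was at 3.65 ± 0.59 in P24 bulk, 3.62 ± 0.34 in the IP and 2.73 ± 0.34 in the Input, all called, and at 0.51 ± 0.29 at P17, not called. In the IP 8 of 32 neighbours were called, 6 higher and 2 lower, a share near the 20% of all genes. Those with an absolute log2 fold change of at least 1 were Gm42674, S100a10, S100a3 and Gm19739 (1.007 ± 0.16). The median of the 32 was -0.05. Dip2a overlaps S100b on the opposite strand without shared exonic bases and was not called between genotypes.

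The genes whose levels ran most like each member were ranked by the lower of their Pearson correlations over 16 bulk and over 12 TRAP libraries, among 17437 genes (17438 for S100a4). The libraries share groups and mice, so these values carry the differences between groups and are descriptions. S100b ran with Cmtm5 (r = 0.877 in bulk and 0.965 in TRAP), Slc1a3, the glutamate transporter GLAST, and Ndrg2, genes of mature astrocytes or glia. S100a4 ran with Gm42674 (0.98 and 0.997), Vim (0.971 and 0.99) and Lgals3 (0.962 and 0.96). Vim was also among the first 3 for S100a6 (0.987 and 0.968), with Dhrs1 and Cd9, and for S100a11 (0.941 and 0.946), with Cryab and Cd151. These ranks depend on the measure. By Spearman correlation Gm42674 stayed at rank 1 for S100a4, while Lgals3 was at rank 74. Vim was then at rank 14 for S100a4, 12 for S100a6 and 403 for S100a11.

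S100a1 ran with Pea15a (0.956 and 0.966), Hsd17b4 and Pmp22, and S100a16 with Gm15852 (0.924 and 0.972), Itgb1 and Slc25a1. For S100a13 the first 3 were Gm6166 (0.962 and 0.957), Gm18103 and Rps23-ps2. Among the members, S100a4 and S100a6 had the highest bulk correlation, 0.945 with 0.988 in TRAP. S100b ran against S100a4 in bulk (-0.847) and with it in TRAP (0.771), where the step between IP and Input is shared by all 7. S100a1 and S100a13, which start 42 bases apart, had a bulk correlation of 0.434, lower than that of S100a1 with S100a4 (0.852) or with S100a16 (0.787).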

How the data were processed

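Per the study's methods, reads were aligned to mm10 by STAR on the Galaxy platform. The deposited values are unnormalized read counts for each Ensembl gene. The read counter, its strand setting, the annotation and the tool versions are not given in the sources used here. The age of each bulk table was taken from its name and checked against the study's gene lists. Symbols and exonic lengths came from a GRCm38 annotation, which held 53237 of the 53342 identifiers (105 were not found). Upstream sequences of all 7 genes came from RefSeq. The targeted gene is not reported here.

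Counts were scaled with TMM, filtered with filterByExpr (minimum count 10, minimum total 15, proportion 70%) and compared with the two-sided quasi-likelihood test of edgeR 4.0.16 in R 4.3.3. P-values were adjusted by Benjamini-Hochberg over all genes tested, and an adjusted p under 0.05 was a call. Each cKO against Ctrl comparison and each fraction was fitted on its own groups. The SE is the log2 fold change divided by the square root of F. Levels per kb are CPM over exonic length. Correlations used log2 CPM with a pseudocount of 0.5 and genes whose log2 CPM averaged at least 1. The pipeline was tested on simulated data. Over 36 pairs of replicates, counts differed by more than sampling noise (chi-square per degree of freedom 2.59 to 78.6), so no library was counted as a repeat.

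Same-numbered P17 libraries deviated together (correlations 0.321, 0.184, 0.38 and 0.167), so those numbers were taken as pairs. Those of P24 bulk (0.029 to 0.218), the IP (0.036 to 0.116) and the Input (-0.034 to 0.102) did not all pass 0.1. IP and Input of a number came from the same mouse by their labels. Their correlations, 0.069 to 0.08 in Ctrl and -0.102 to 0.122 in cKO, did not all pass 0.1 either. The mouse block thus rests on the labels.

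The 7 genes, the gene and marker lists and the motifs were chosen with earlier results of these data known. Named genes were all 7 members, other S100 genes called in a cKO against Ctrl comparison, the 4 partner genes with the largest absolute fold change among those called in the IP, the 3 genes most like each member, overlapping genes, and neighbours within 250 kb called in the IP with an absolute log2 fold change of at least 1. Vim, Gfap, Cd68, S100a5, S100a8 and S100a9 were named after their values were seen. The alternatives were DESeq2 1.42.0, edgeR's likelihood ratio test, RLE factors, library size alone, no filter, the replicate block, one fit per experiment, leaving out each library, Spearman correlation, and leaving out libraries that stood apart, the last chosen after seeing the data.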

Additional observations from a re-analysis of the deposited data

Results flagged for a closer look

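S100a11 in the P17 Ctrl group had 1 library far from the other three. Replicate 4 measured 3.352 CPM against 2.25, 2.19 and 2.06 CPM, a gap of 0.857 of the group's whole range, past Dixon's critical value for 4 samples. Among 28 gene and group combinations with 4 libraries this was the only one past its critical value, and chance alone flags about 1 in 20. The P17 log2 fold change of S100a11 was 0.09 ± 0.23, and S100a4 was also highest in this library, at 1.34 CPM. Replicate 4 also had the highest olfactory marker sum of the P17 Ctrl group, 36.4 CPM against 11.5, 12.3 and 10.4 CPM. A link between these values was not tested.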

How the results depend on the processing

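The number of the 7 genes called did not move beyond 1.5 times its value in the IP (6 to 6 in the fits that left out 1 library) or between IP and Input in either genotype (7 to 7). In P24 bulk it was 5, between 4 and 7 with 1 library left out, and 1 without Ctrl libraries 1 and 4. In P17 bulk it was 1, and 0 with RLE factors, in one fit of all bulk libraries, and in every fit with 1 library left out (0 to 0). In the Input it was 2, and 5 without a filter, with DESeq2 and in one fit of all TRAP libraries, 6 with the likelihood ratio test, 1 with the replicate block, and 0 to 5 with 1 library left out. For the age by genotype difference it was 0, and 1 without a filter, 2 with DESeq2, 2 with the likelihood ratio test, 2 with the replicate block (S100a6 and S100a16), and 0 to 4 with 1 library left out. The replicate block changed no other count of called members. The cause was not tested in any of these. Shares of all genes called at these settings are not given here, so the counts describe the 7 genes alone.

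Of 875 alternative values of log2 fold changes, 10 changed sign, all of them values near 0. At P17, S100a16 turned from -0.01 to positive in 5 fits with 1 library left out, by at most 0.0404 (range over all such fits -0.0901 to 0.0404), and S100a11 turned from 0.09 to -0.0396 (range -0.0396 to 0.2595). For S100a4, the fraction by genotype value of 0.10 turned to -0.0113 with the replicate block and to negative values in 3 fits with 1 library left out (range -0.4917 to 0.4193). With all TRAP libraries in one fit, 4 of the 7 were called in the IP. The order of the levels was the same in 8 of 8 groups with library size alone. Of the 21 genes most like a member, Spearman correlation kept 4. Depth limits S100a4 most, with 3 to 13 counts in Ctrl bulk and Input libraries. Fits with 1 library left out of 3 leave 2 in that group.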
